A study of Homo sapiens with 5 samples.

Results

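The empty vector arrays describe the baseline transcriptome of MHCC97H, a human hepatocellular carcinoma cell line derived for its metastatic behaviour. These cells carried a stably expressed vector without a coding insert and had been kept in puromycin for 1 week. They were chosen by their label and make up 2 of the 5 arrays of the study, which set out to find genes downstream of the acetyl-CoA thioesterase ACOT12. The other 3 arrays hold cells of the same line and selection that carry ACOT12 (n = 2) or an ACOT12 mutant (n = 1), and no transgene contrast is given here. The labels do not say whether the stable cells were a pool or a clone, nor whether the replicates were separate cultures, so the spread between them may be technical.

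Hepatocytes secrete most plasma proteins, run the urea cycle and gluconeogenesis, make bile acids and detoxify drugs, under a set of transcription factors that includes the HNF, FOXA and CEBP families. Liver cancer lines keep some of these programmes, regain fetal liver genes such as AFP and H19, and can mix epithelial features (keratins, desmosomes, E-cadherin) with mesenchymal ones (vimentin, N-cadherin, fibronectin). Dividing cells also transcribe replication genes before S phase, many through E2F sites, and mitotic genes before division, many through CCAAT boxes and the cell cycle gene homology region (CHR).

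Each array gave a linear intensity for 28264 probes, of which 25893 had 1 gene symbol. The brightest probe by mean intensity stood for each symbol, which left 19090 symbols to rank. Olfactory receptors, which are expressed mainly in the nose, served as a reference for genes that should be silent. A symbol was called above the reference when it exceeded the 95th percentile of 342 olfactory receptor symbols on both arrays (4678 intensity units in replicate 1 and 3470 in replicate 2). It was called at the floor when it lay under their median on both arrays (248 and 170.1). By these rules 5086 symbols (26.6%) were above the reference and 4578 (24.0%) were at the floor. The other 9426 met neither rule on both arrays and are called between the 2 levels, also where 1 array lay outside them. The brightest 10% of each array shared 1832 symbols (9.6%). The count above the reference rests on the percentile: with the 99th percentile of the same receptors it fell to 1008 symbols. The reading of a probe also depends on the probe, so ranks are ranks of probe readings and no fold is given between genes.

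**Figure D1:**
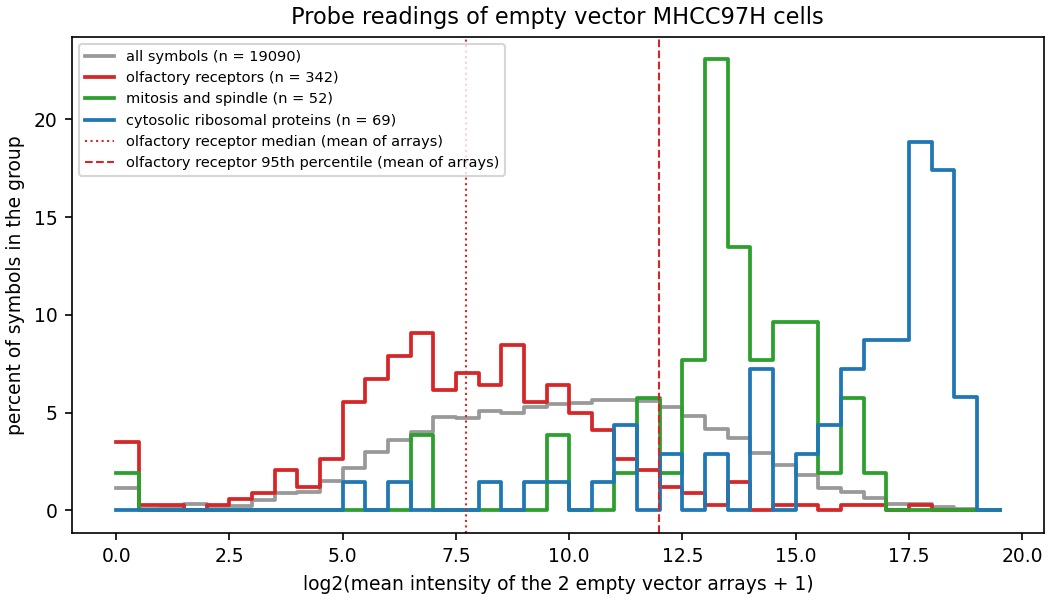
Distribution of the mean intensity of the 2 empty vector arrays, on a log2(intensity + 1) axis, as the percent of symbols per bin for all 19090 symbols, 342 olfactory receptors, 52 mitosis genes and 69 cytosolic ribosomal proteins. Dotted and dashed lines mark the olfactory receptor median and 95th percentile; most ribosomal and mitotic symbols lie to the right of the dashed line, and a few ribosomal symbols lie left of the dotted one.

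Across symbols, which are not independent replicates, the log2 values of the 2 arrays correlated at Pearson r = 0.986, and at 0.991 among the 5086 symbols above the reference. Of those, 4399 (86.5%) differed by at most 0.25 on the log2 scale and 3 by more than 1. Those 3 were PCDHGA2, a protocadherin, with 12115 and 5230 in replicates 1 and 2, CST1, a cystatin, with 10938 and 22707, and OLFM2, an olfactomedin, with 8423 and 4207. Of the 10 symbols with the largest differences, 7 were lower in replicate 2. In 6 of those 7 the ACOT12 mutant array was lower than replicate 2. The difference between replicates moved with brightness. Replicate 2 minus replicate 1 had a median of −0.81 on the log2 scale in the dimmest 10% of symbols and of 0.05 in the brightest 10%. Values under the floor therefore have no order here.

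**Figure D2:**
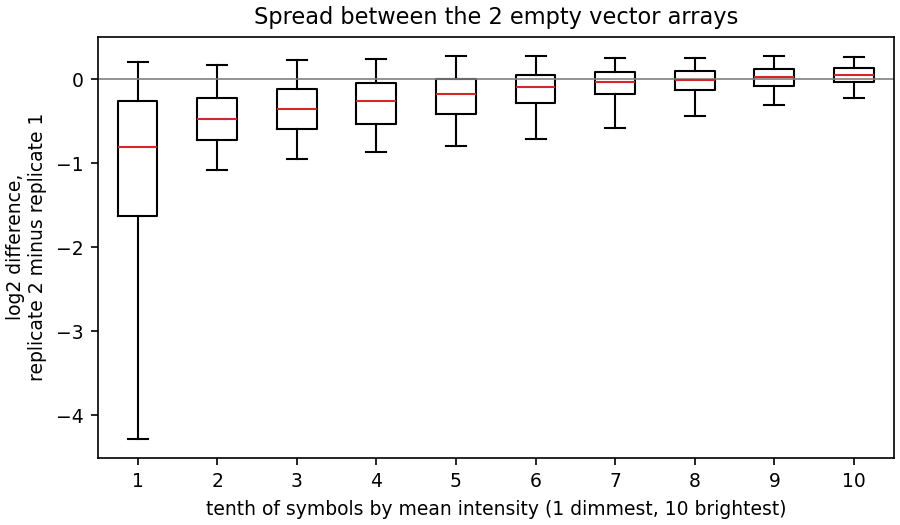
Difference between the empty vector replicates (replicate 2 minus replicate 1, log2 of intensity + 1) for 10 groups of 1909 symbols ordered by mean intensity. Boxes span the quartiles, red lines are medians and whiskers run from the 5th to the 95th percentile; the median moves from −0.81 in the dimmest group to 0.05 in the brightest.

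The brightest symbols were calcium-binding and redox genes together with genes that every cell uses. S100A4, a calcium-binding protein tied to cell motility, ranked 1st of all symbols with 639857 in replicate 1 and 660134 in replicate 2 intensity units. S100A6 (calcyclin), its neighbour in the S100 cluster, came next with 628472 and 620089. AKR1B10, an aldo-keto reductase raised in many liver cancers, ranked 3rd with 539082 and 543928. Both arrays gave these 3 in this order.

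The next ranks mixed glycolysis, ribosomes, iron storage and the actin cytoskeleton. The glycolytic enzyme ENO1 read 498206 and 531032 and GAPDH read 408701 and 436602. FTL, the ferritin light chain, read 427435 and 429878. TMSB10, which binds actin monomers, read 413087 and 429489. CAV1, the main coat protein of caveolae, read 417802 and 422069.8 and the cytokine MIF read 379360.5 and 407152. FN1, the matrix protein fibronectin, read 381826 and 402519 by 1 probe, and its second probe read 1650 and 1519. Of the 30 brightest symbols, 8 encode ribosomal proteins of the cytosol: RPS27, RPL8, RPLP1, RPS29, RPL19, RPL11, RPL39 and RPL35A. The rest of the 30 hold the aldo-keto reductases AKR1C3 and AKR1C1, the actin nucleator subunit ARPC1B, ubiquitin (UBB), the ATP synthase subunit ATP5F1B, the transketolase TKT, the lactate dehydrogenase subunit LDHB, the cytochrome oxidase subunit COX6A1, TMEM216, HIPK3 and the copies PPIAL4D and PTMAP12. AKR1C1 and AKR1C3 are close paralogs, and PPIAL4D and PTMAP12 are near-identical to PPIA and PTMA, so their probes cannot be credited to 1 gene. The probe of PPIA itself read 2474 and 2353, and the brighter probe of AKR1C2 read 2405 and 1985, both between the 2 levels. Among the 100 brightest, 64 fell in 1 of the 30 lists used here, 26 of them ribosomal. The 100 brightest symbols held 18.6% of the summed intensity in replicate 1 and 18.998% in replicate 2.

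The sequence before the start of the brightest gene is shown because TATA boxes are rare before bright genes. It covers 250 bases upstream of the S100A4 start in RefSeq GRCh38.p14, chr1:153545807-153546056, minus strand, 5′ to 3′ in the direction of transcription, with the TATA box in capitals 31 bases before the start.
S100A4: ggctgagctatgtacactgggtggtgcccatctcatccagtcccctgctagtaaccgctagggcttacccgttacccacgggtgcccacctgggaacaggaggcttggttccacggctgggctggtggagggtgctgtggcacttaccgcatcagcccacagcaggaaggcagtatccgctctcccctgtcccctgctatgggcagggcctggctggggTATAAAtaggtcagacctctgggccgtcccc

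Several bright symbols rested on 1 of several probes. TMEM216, a protein of the ciliary transition zone, read 394886 and 445981 by its brightest probe and 8966 and 9684 by the other. HIPK3, a protein kinase, read 370788 and 411523 by the brightest of 3 probes, while the dimmest read 37.8 and 21.4. UBB read 345706 and 372820.4 by 1 probe and 2126 and 1998 by the other. These pairs disagree far beyond the spread between replicates, so the rank of these genes is that of a single probe. Over all symbols with several probes whose brightest was above the reference (2019), 1355 (67.1%) had another probe that was not. Of the 100 brightest symbols, 46 had several probes, and 15 of these had one that was not above the reference. Of all 19090 symbols, 5751 had several probes. By their brightest probe 35.1% of those 5751 were above the reference, beside 23.0% of the 13339 symbols with 1 probe.

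The liver block of 7 lists held 198 measured symbols, of which 58 (29.3%) were above the reference, close to the 26.6% of all symbols, and 43 were at the floor. The lists within it differed. Hepatocyte transcription factors were above the reference in 8 of 18 and fetal liver or liver cancer markers in 12 of 24. Plasma proteins reached it in 6 of 35, apolipoproteins in 2 of 15 and membrane transporters in 2 of 22.

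Secreted liver products were mostly dim. AMBP, the precursor of alpha-1-microglobulin and bikunin, was the brightest plasma protein and differed between replicates, with 43889 in replicate 1 and 75271 in replicate 2 (difference 0.78 on the log2 scale). CP (ceruloplasmin, a copper carrier) read 16828 and 18129, ITIH2, a hyaluronan-linked inhibitor chain, read 17658 and 15597, and TF (transferrin, the iron carrier) read 7448 and 9198. ALB, the main plasma protein, read 2771 and 2843, under the 95th percentile of the olfactory receptors on both arrays. TTR (transthyretin) read 482 and 375 and SERPINA1 (alpha-1-antitrypsin) read 791 and 1030.5. The 3 fibrinogen chains were higher in replicate 2 than in replicate 1, with 2384 and 5310 for FGA, 3967 and 6397 for FGB and 851 and 2221 for FGG. Among fixed hepatocyte markers, TF was thus above the reference, and ALB, TTR, APOA1, APOB, SERPINA1 and FGB were classed between the 2 levels. FGB exceeded the reference in replicate 2 alone. ITIH3 and PLG (plasminogen) were at the floor.

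Among apolipoproteins, APOC1, which modulates lipoprotein uptake, stood out with 43391 and 66056 and was higher in replicate 2 by 0.61 on the log2 scale. APOC2, the cofactor of lipoprotein lipase, read 7488 and 7987. APOE, a ligand of lipoprotein receptors, read 1809 and 2244, APOA1, the main protein of HDL, read 2027 and 1297, and APOB, the scaffold of VLDL, read 854 and 644. APOA2 read 38.8 and 18.0, at the floor with APOA4, APOF and LPA. The list thus had 2 bright members, and its median symbol lay at the 42.0th percentile.

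Several hepatocyte transcription factors were bright. FOXA2, a pioneer factor of endoderm and liver, read 38742 and 44347. CEBPA, which sustains the differentiated hepatocyte, read 34459.9 and 38387, and CEBPB, its partner in the acute phase response, read 23837 and 30514. HHEX, a homeobox factor of liver bud formation, read 18029 and 19976. These 4 lay in the brightest 10% on both arrays. FOXA3 (12639 and 12284), RXRA, the common partner of nuclear receptors (9358 and 8995), FOXA1 (5331 and 5996) and PPARA, the fatty acid sensor (5407 and 5175), were above the reference. HNF4G, TBX3, NR0B2, GATA6, ONECUT2, GATA4, NR5A2, ONECUT1 and PROX1 lay between the 2 levels, from 3019 and 3397 for HNF4G to 328 and 309.7 for PROX1. NR1I3, the xenobiotic receptor CAR, was at the floor with 87.8 and 52.9.

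Metabolic enzymes of the hepatocyte were split between bright and floor readings. Of 34 symbols, 8 (23.5%) were above the reference, near the 26.6% of all symbols, and 14 were at the floor, where 24.0% of all symbols lay. ALDH1A1, a retinaldehyde dehydrogenase, read 249437 and 261133 and the mitochondrial acetaldehyde dehydrogenase ALDH2 read 161270.5 and 170987. CYP27A1, the sterol 27-hydroxylase, read 40946 and 43144, and FAH, the last enzyme of tyrosine breakdown, read 15662 and 17520.1. FBP1, a gluconeogenic phosphatase, read 7586 and 8417. Enzymes at the floor included CPS1, which starts the urea cycle (44.9 and 20.3), ARG1, which ends it (115 and 76.6), CYP7A1, the rate-limiting enzyme of bile acid synthesis (51.1 and 18.0), and G6PC1, the last step of glucose release (78.6 and 30.4). ASS1 (3819.7 and 3388) and OTC (238 and 276), which act between CPS1 and ARG1, were classed between the 2 levels. OTC lay under the olfactory receptor median in replicate 1 alone. ASL was above the reference with 5565 and 5987. Urea cycle enzymes were therefore found in all 3 classes.

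Drug-metabolising enzymes reached the reference in 10 of 29 symbols (34.5%), beside 26.6% of all symbols. The CYP1A2 probe, named for a P450 that clears caffeine, read 206789 and 230443, rank 78 of 19090. The probe of CYP1A1, an inducible member of the same family, read 404 and 599. GSTP1, a glutathione transferase of biliary and tumour cells, read 180327 and 170939.7, and the epoxide hydrolase EPHX1 read 163001 and 172052. CES1, a liver carboxylesterase, was bright by both of its probes (83311 and 86691, and 67733 and 66281). SULT2A1 and CYP3A7 were at the floor, as was CYP3A4, the chief P450 of the adult liver, with 155 and 132. Of 22 transporters, ABCC2, the canalicular organic anion pump (28221 and 25075), and SLC51B, a subunit of a basolateral bile acid exporter (7517 and 8676), were above the reference. ABCG8, a sterol exporter, and SLCO2B1 were at the floor.

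Fetal liver and liver cancer markers gave the highest median of the liver lists, at the 79.0th percentile. Besides AKR1B10, H19, the imprinted fetal transcript, read 169038 and 141175 by its brighter probe and 77233 and 63331 by the other. HSPA1A, an inducible chaperone, read 111395 and 154139, SQSTM1 (p62), which accumulates when autophagy is slow, 110409.6 and 109137, and the growth factor MDK (midkine) 85508 and 100503. DKK1, a secreted Wnt inhibitor, read 47317 and 41231, GOLM1, a Golgi protein shed into serum, 34767 and 36376, GLUL, the glutamine synthetase of hepatocytes near the central vein, 28987 and 34178, and the RNA-binding protein IGF2BP3 22752 and 19352. TSPAN8, IGF2BP2 and PEG10 were above the reference but outside the brightest 10%.

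AFP and GPC3, which are used to diagnose this cancer, were dim. AFP, the alpha-fetoprotein of fetal liver, read 3607 in replicate 1 and 3764 in replicate 2, under the 95th percentile of the olfactory receptors in replicate 1 and above it in replicate 2. GPC3, a cell surface proteoglycan, was at the floor with 118 and 94.6. SALL4, a fetal zinc finger factor, was at the floor with 117 and 108, as was LIN28B with 195 and 95.7. CAP2, DLK1, IGF2BP1, TERT, SPINK1, IGF2, MUC13 and REG3A were classed between the 2 levels, from 4641 and 5064 for CAP2 to 356 and 143 for REG3A. In replicate 2 alone, CAP2 exceeded the reference and REG3A lay under the olfactory receptor median. So 12 of 24 markers reached the reference on both arrays, and AFP and GPC3 did not. AFP did exceed, on both arrays, the 95th percentile of another silent reference, keratin-associated proteins and taste receptors (2835 in replicate 1 and 2421 in replicate 2).

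Progenitor and biliary markers reached the reference in 10 of 21 (47.6%), beside 26.6% of all symbols. SPP1 (osteopontin), a secreted protein of bile duct cells, read 256237 and 298558, and ANXA4, an annexin of biliary epithelium, read 139072 and 147074. KRT19, the keratin of bile ducts, read 59323 and 49967, the progenitor factor SOX4 29180.2 and 32532 and SOX9, the biliary fate factor, 8297 and 9788. EPCAM read 1042 and 673, KRT7, the partner of KRT19 in ducts, read 1453 and 1251, and both lay between the 2 levels. LGR5, a Wnt-responsive stem cell receptor, and CFTR were at the floor. Of the 5 fixed biliary and progenitor markers, 3 were thus above the reference.

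The epithelial block was above the reference in 21 of 62 symbols (33.9%), beside 26.6% of all symbols, with a median at the 54.8th percentile. KRT18, a keratin of simple epithelia, read 129326 and 119691. KRT20, best known from gut epithelium, read 81247 and 63933, and KRT10, known from stratified skin, read 45974 and 51988. KRT15 (13115 and 10976) and KRT14 (9227 and 5555) were above the reference. KRT13, KRT8, KRT7 and KRT80 were classed between the 2 levels, and KRT5 was at the floor. KRT13 exceeded the reference in replicate 1 alone, with 5450 there and 3285 in replicate 2. KRT8, the usual filament partner of KRT18, read 2563 and 1839 by its 1 probe. The filament pair thus fell in different classes.

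Epithelial regulators differed in the same way. ELF3, an ETS factor of epithelia, read 66832 and 71859, and KLF5, AP1M2, ERBB3, CDS1, KLF4, EHF, ESRP2, LSR, RAB25, GRHL1, OVOL1 and PRSS8 ran from 11825 and 12708 for AP1M2 to 189.9 and 189 for PRSS8. ESRP1, OVOL2, MAL2 and GRHL2 were at the floor. Junction genes reached the reference in 12 of 34 (35.3%), beside 26.6% of all symbols. CTNNB1, the beta-catenin that joins cadherins to Wnt signalling, read 71834 and 52768, the desmosomal cadherin DSG2 31009 and 22776, the claudin CLDN4 19293 and 18845 and PERP, a desmosome protein, 17969 and 15999.8. CDH1, the E-cadherin of epithelial junctions, read 665 and 622, between the 2 levels, and CDH3 and MARVELD2 were at the floor. Of the 4 fixed epithelial markers, KRT18 alone was above the reference.

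The mesenchymal block was above the reference in 34 of 83 symbols (41.0%), beside 26.6% of all symbols. Its cytoskeleton and adhesion genes led, with 17 of 28 above the reference and a median at the 82.4th percentile. Beside S100A4 and CAV1, CAV2 read 128819.9 and 121392 and the annexin ANXA1 read 123980.2 and 115492. CDH2, the N-cadherin, read 14745 and 16020, above the reference on both arrays. VIM, the intermediate filament vimentin, read 2731 and 2284 by its 1 probe, between the 2 levels. CDH11 and ENG were at the floor. Of the 3 fixed mesenchymal markers, FN1 and CDH2 were above the reference and VIM was not.

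Matrix genes reached the reference in 14 of 39 (35.9%), beside 26.6% of all symbols. After FN1 came ITGB1, the common beta chain of matrix receptors (88375 and 96637), MMP7 (matrilysin), a protease secreted by epithelia (80338 and 67588), and TIMP2, a protease inhibitor (34234 and 31977). The fibrillar collagens COL3A1 and COL1A2 were at the floor with 26.5 and 20.3 and with 97.0 and 67.6, and so was POSTN (periostin), a product of fibroblasts. Other collagens read higher: COL6A1 (10929 and 11309) and COL6A2 (4961 and 5531) were above the reference. COL5A1 (4594 and 4587) and COL1A1 (3738 and 2288) were classed between the 2 levels, and COL5A1 exceeded the reference in replicate 2 alone. Of the integrins, ITGAV was above the reference with 16925 and 16456 and ITGA5 was not, with 2106 and 2265. Collagens and integrins were thus found in more than 1 class.

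Transition transcription factors, many but not all of which repress epithelial genes, were above the reference in 3 of 16 (18.8%), beside 26.6% of all symbols. Their median lay at the 39.6th percentile. TCF3 (E12/E47) read 15107 and 16502, SOX9 is given above, and SNAI1, the repressor of E-cadherin known as Snail, read 4950 and 5375. TWIST2 read 4483 and 4629.8, under the reference in replicate 1. ZEB1 (2049 and 1609), KLF8 (1339 and 787), TCF4 (803 and 419), RUNX2 (722 and 450.5), TWIST1 (575 and 478), SNAI2 (493 and 551), ZEB2 (464 and 429) and SNAI3 (278 and 216) lay between the 2 levels. TBXT, FOXC2, PRRX1 and GSC were at the floor. Snail was therefore the only factor of the SNAI, TWIST and ZEB families above the reference on both arrays, by a reading close to the reference level. This depends on the reference chosen. The 95th percentile of keratin-associated proteins and taste receptors, another silent reference, was 2835 in replicate 1 and 2421 in replicate 2. TWIST2 exceeded that level on both arrays as well.

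**Figure D3:**
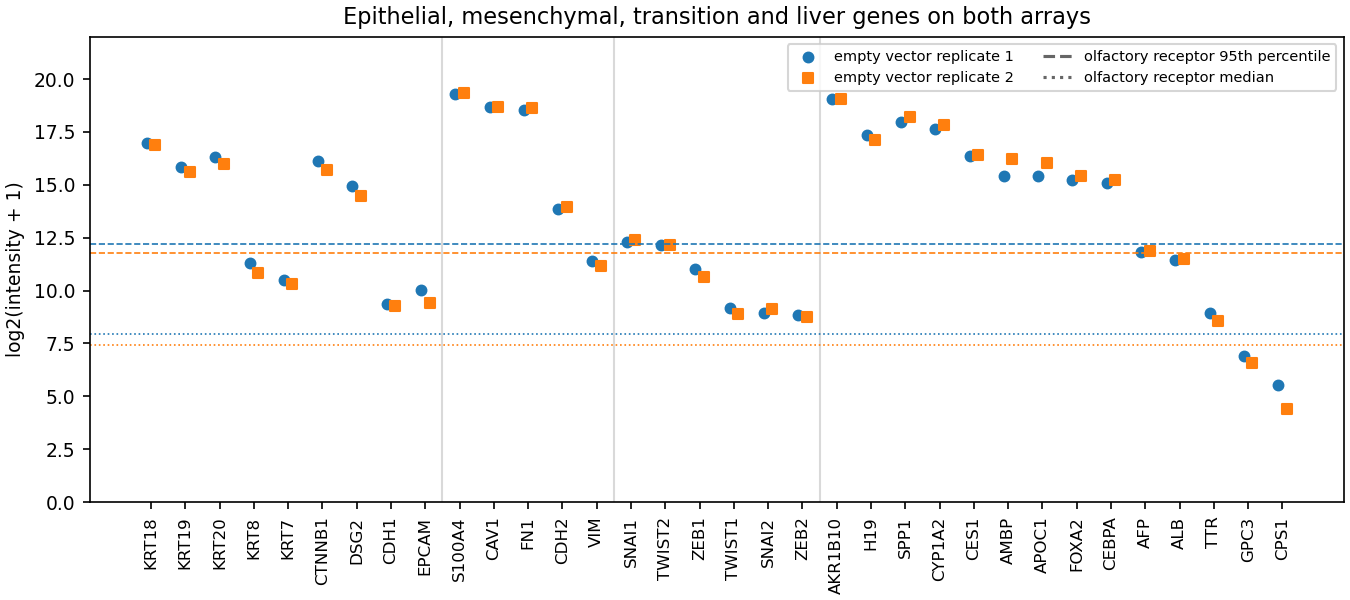
Readings of 34 epithelial, mesenchymal, transition and liver genes on both empty vector arrays, as log2(intensity + 1), with circles for replicate 1 and squares for replicate 2; vertical grey lines part the groups. Dashed and dotted lines in the colour of each array are the olfactory receptor 95th percentile and median; S100A4, AKR1B10 and KRT18 lie far above the dashed lines, AFP lies between them and GPC3 and CPS1 lie under the dotted ones.

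The proliferative block was above the reference in 87 of 121 symbols (71.9%), beside 26.6% of all symbols, and 3 were at the floor. Replication genes reached it in 29 of 40. FEN1, the flap endonuclease of lagging-strand synthesis, read 178814 and 171019, the sliding clamp PCNA 114389.6 and 119908, the thymidine kinase TK1 76955 and 87036 and the helicase subunit MCM7 75991 and 73623. No replication gene was at the floor. The lowest, RPA3, a subunit of the single-strand binding protein, read 326 and 275.

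Mitosis genes were above the reference in 43 of 52 (82.7%), beside 26.6% of all symbols, with a median at the 85.8th percentile. CKS1B and CKS2, small partners of cyclin-dependent kinases, read 110809 and 118350.1 and 76733 and 83064. UBE2C, the ubiquitin-conjugating enzyme of mitotic exit, read 86433 and 96873, and the checkpoint protein BUB3 read 69902 and 71534. BUB1B, a checkpoint kinase, read −3.06 and −11.3, and PTTG1 (securin) read 108 and 83.3; both were at the floor with NCAPG, a condensin subunit. Each of these 3 had 1 probe. The G1 list reached the reference in 15 of 29 (51.7%). It was led by CDK4 (165535 and 171528) with its cyclins CCND1 (40487 and 43502) and CCND3 (38027 and 43153), and then CDK2 (21289.6 and 22222). MYC, a growth regulator, lay above the reference at the 88.3th percentile. RB1, the restraint on E2F, read 456 and 463, between the 2 levels. MYCN read 97.0 and 266, under the olfactory receptor median in replicate 1 alone.

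Many windows of the mitosis genes held the sequence features that the background describes for them, while few windows of the replication genes held the E2F letters searched. Motifs were searched in windows of 300 bases, from 250 before to 50 after the start (RefSeq, GRCh38.p14), which were found for 44 of the 52 mitosis genes and 35 of the 40 replication genes. The CHR letters TTTGAA, read on both strands, occurred in 30 of 44 mitosis windows (68.2%), beside 12.0% of all 14599 protein-coding windows. The CCAAT box (CCAAT, both strands) occurred in 31 of them (70.5%), beside 36.4%. Both together occurred in 23 (52.3%), beside 5.03%. The mitosis genes with the CHR were above the reference in 23 of 30 and those without it in 12 of 14, so the letters did not part bright from dim members. The E2F letters TTTCGCGC occurred in 5 of 35 replication windows (14.3%), of MCM2, MCM3, MCM6, MCM7 and POLA2, beside 0.822% of all windows. A match is no evidence of binding.

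The 3 brightest mitosis genes with both elements before the start, and 2 replication genes with the E2F letters, are shown so that the elements can be seen in place. Capitals mark CCAAT or its reverse complement ATTGG, and TTTGAA or TTCAAA, in the CKS1B, CKS2 and CDC20 windows, and TTTCGCGC in the MCM7 and POLA2 windows. Only the 250 bases before the start are printed, 5′ to 3′ in the direction of transcription, and the last letter is the base before the start. In CKS1B the CHR begins 30 bases and in CKS2 29 bases before the start, downstream of every CCAAT box. The order differs in CDC20, where the CHR letters begin 178 and 65 bases and the CCAAT boxes 100 and 55 bases before the start. In MCM7, whose first of 3 listed windows is printed, the E2F letters begin 9 bases before the start. The printed stretches lie at chr1:154974431-154974680 (CKS1B, plus strand), chr9:89310945-89311194 (CKS2, plus), chr1:43358731-43358980 (CDC20, plus), chr7:100101398-100101647 (MCM7, minus) and chr11:65261712-65261961 (POLA2, plus).
CKS1B: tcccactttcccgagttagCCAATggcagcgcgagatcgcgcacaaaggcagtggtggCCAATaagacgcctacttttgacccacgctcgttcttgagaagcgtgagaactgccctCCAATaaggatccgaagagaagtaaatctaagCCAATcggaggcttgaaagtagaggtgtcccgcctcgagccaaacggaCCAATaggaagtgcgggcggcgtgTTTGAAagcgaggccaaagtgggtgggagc
CKS2: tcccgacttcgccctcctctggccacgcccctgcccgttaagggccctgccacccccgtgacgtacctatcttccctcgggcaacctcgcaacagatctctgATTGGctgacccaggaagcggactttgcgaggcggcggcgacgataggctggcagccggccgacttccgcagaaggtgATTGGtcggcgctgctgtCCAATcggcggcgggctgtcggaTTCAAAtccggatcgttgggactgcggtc
CDC20: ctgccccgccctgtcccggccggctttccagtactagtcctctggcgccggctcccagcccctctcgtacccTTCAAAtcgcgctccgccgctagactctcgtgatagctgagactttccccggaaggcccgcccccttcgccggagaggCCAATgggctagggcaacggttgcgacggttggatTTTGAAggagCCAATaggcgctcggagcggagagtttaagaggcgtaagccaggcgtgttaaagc
MCM7: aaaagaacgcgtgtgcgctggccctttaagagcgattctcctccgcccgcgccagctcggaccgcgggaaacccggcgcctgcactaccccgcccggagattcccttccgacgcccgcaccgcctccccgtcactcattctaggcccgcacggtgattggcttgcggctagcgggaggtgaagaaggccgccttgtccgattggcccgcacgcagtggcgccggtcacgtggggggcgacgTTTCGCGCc
POLA2: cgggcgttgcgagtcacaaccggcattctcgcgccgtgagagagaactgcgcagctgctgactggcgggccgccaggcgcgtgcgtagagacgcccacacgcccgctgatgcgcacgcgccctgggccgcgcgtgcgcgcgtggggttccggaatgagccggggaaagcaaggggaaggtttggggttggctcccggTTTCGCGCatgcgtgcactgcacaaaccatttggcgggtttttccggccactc

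Genes that every cell uses set the upper end of the ranking and also showed how far a floor reading can be trusted. Of 205 housekeeping symbols, 174 (84.9%) were above the reference and 9 were at the floor, beside 26.6% and 24.0% of all symbols. Cytosolic ribosomal proteins reached it in 60 of 69, translation factors in 33 of 36, respiratory chain subunits in 33 of 38, cytoskeleton and folding genes in 32 of 39 and glycolysis genes in 16 of 23. The initiation factor subunit EIF3H read 230091 and 231557, the elongation factors EEF1G and EEF1A1 199978 and 226711 and 211462 and 209167, and EIF5A 197046 and 206111. Yet RPL3, a core protein of the large subunit, read 50.03 and 20.27, RPL7A 108 and 65.3, the initiation factor subunit EIF3F 28.6 and 20.3, the complex I subunit NDUFS1 49.0 and 33.8 and the actin-severing protein CFL1 55.1 and 30.4, each by its 1 probe. Since dividing cells need these genes, a floor reading here is a reading of the probe and does not show that a gene was silent.

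Glycolysis and respiration were bright together. LDHB read 311898 and 347703 and PKM, the last step of glycolysis, read 272195 and 312206, and of the hexokinases HK1 read 51693 and 59679, while HK2 (107 and 122) and HK3 (18.4 and 7.88) were at the floor. The respiratory subunits ATP5F1B, COX6A1, COX6B1 and COX5B read 348156 and 346664, 311515 and 334995, 251851 and 268935 and 218198 and 244793. Among cytoskeleton and folding genes, ACTB read 313544 and 327574, HSP90AB1, a constitutive chaperone, 297232 and 307762 and TUBB4B, a beta-tubulin, 297760.4 and 289470, and TUBA1A was at the floor. ACTB and ACTG1 share most of their sequence, as do the tubulins, so these readings may include close copies.

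RPS21, a ribosomal protein of the small subunit at the 99.8th percentile, carries the ETS letters at a pair of places in its window, which is shown as an example of the ribosomal list. The letters CCGGAAG, on both strands, occurred in 20 of 59 ribosomal windows (33.9%), beside 14.5% of all windows. The printed 250 bases before the start lie at chr20:62386853-62387102, plus strand, with the ETS letters in capitals 134 and 63 bases before the start.
RPS21: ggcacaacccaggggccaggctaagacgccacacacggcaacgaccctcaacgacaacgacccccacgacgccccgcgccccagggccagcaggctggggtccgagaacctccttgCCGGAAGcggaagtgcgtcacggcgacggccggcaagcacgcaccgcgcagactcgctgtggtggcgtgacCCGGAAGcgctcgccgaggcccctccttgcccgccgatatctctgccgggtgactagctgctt

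Genes of iron and metal handling and oxidative stress were above the reference in 24 of 35 (68.6%), beside 26.6% of all symbols. Of these, 22 lay in the brightest 10% on both arrays, as did 9.6% of all symbols. After AKR1B10 came AKR1C3 (471693 and 491941), FTL and AKR1C1 (378568 and 416513), then TKT (313176 and 360599), which feeds the pentose phosphate pathway, TXN (thioredoxin, 305764 and 326463) and its reductase TXNRD1 (276089 and 285549). Many of these are known targets of NRF2, the transcription factor that the oxidant sensor KEAP1 releases. NQO1, another known target, was at the floor with 87.8 and 63.1 by its 1 probe. None of the measured metallothioneins, which bind metals, was above the reference. MT2A, MT1X, MT1E, MT1G and MT1F were classed between the 2 levels, and MT1M and MT1B were at the floor. The list thus held both bright and floor members.

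Growth factor genes reached the reference in 7 of 32 (21.9%), near the 26.6% of all symbols. MET, the receptor of hepatocyte growth factor, read 191953 and 193409.5 by its brighter probe and 54738 and 58668 by the other, while its ligand HGF was at the floor with 144 and 162. MDK, given above, GDF15, a stress-induced hormone (11613 and 19064), and DDR1, a collagen receptor (13395 and 15022), followed. FGFR4, the receptor for the bile acid hormone FGF19, and FGFR1 were at the floor.

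Markers of other cell types were above the reference in 6 of 119 symbols (5.04%), beside 26.6% of all symbols. Immune markers reached it in 3 of 23, endothelial in 1 of 18, stellate and fibroblast in 0 of 18, erythroid in 0 of 11, neuron and muscle in 1 of 25 and pancreas, gut and lung in 1 of 25. The summed readings ran from 6889 and 4889 for the erythroid list to 148321 and 128976 for the pancreas, gut and lung list, most of which came from LGALS4, and those of the immune list were 36106 and 31076. CD3D, a T cell receptor subunit, read 9504 and 8864 by 1 probe and 36.8 and 18.0 by the other, while its partner CD3E was at the floor with 56.2 and 27.0. CD68, a lysosomal protein best known from macrophages, read 8334 and 8177, GNLY 7508 and 4250.2, the junction protein ESAM 15923 and 14554 and MAP2 4922 and 5708. LGALS4, a galectin of gut epithelium, was the brightest of these markers with 129549 and 113449. Of the remaining fixed leukocyte, endothelial, fibroblast and erythroid markers that were measured, none exceeded the reference on both arrays. They included CD79A, CD14, PECAM1, VWF, LUM, COL1A1, PDGFRB, HBA1 and HBB. LUM exceeded the reference in replicate 2 alone, with 4436 in replicate 1 and 3742 in replicate 2.

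**Figure D4:**
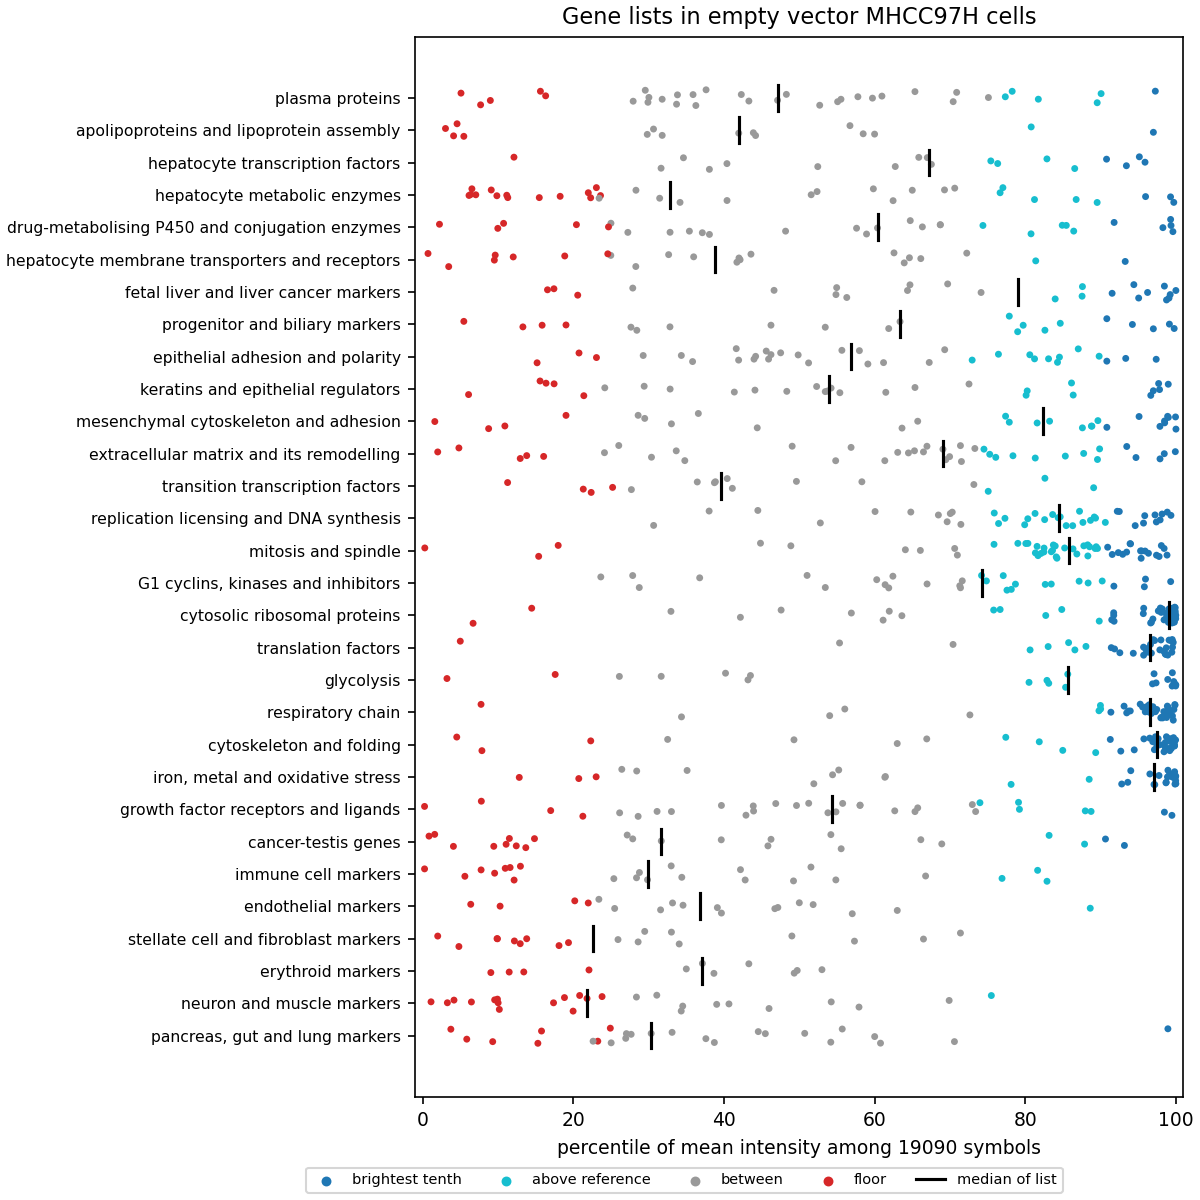
Percentile of each measured member among 19090 symbols, by mean intensity of the 2 empty vector arrays, for 30 gene lists; colours give the class and black bars the median of each list. The ribosomal list has its median at the 99.1th percentile, the mitosis list at the 85.8th and the neuron and muscle list at the 21.8th.

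Bright and dim genes also differed in the sequence around their start. Windows from 250 bases before to 50 after the start were compared for 14599 of 17316 protein-coding symbols outside chromosome 8 (84.3%). The median CpG observed over expected was 0.444 in the dimmest 10% and 0.859 in the brightest, and it levelled off from the 7th of the 10 groups (0.832). The GC box (GGGCGG, both strands) occurred in 39.5% of windows in the dimmest 10% and 71.2% in the brightest, and the ETS letters in 7.47% and 22.8%. The TATA box (TATAAA, both strands) occurred in 15.8% and 6.33%. Among symbols above the reference alone the differences in CpG, GC box and TATA box were not seen or turned. Brightest minus dimmest 10% was 0.0004 for CpG, −0.873 percentage points for the GC box and 2.34 for the TATA box. The ETS letters were not compared among those symbols alone. Over all symbols they occurred in 18.7% of windows in the 7th group and 22.8% in the brightest. By CpG, GC box and TATA box the windows thus parted dim symbols from the rest and did not order the bright ones.

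**Figure D5:**
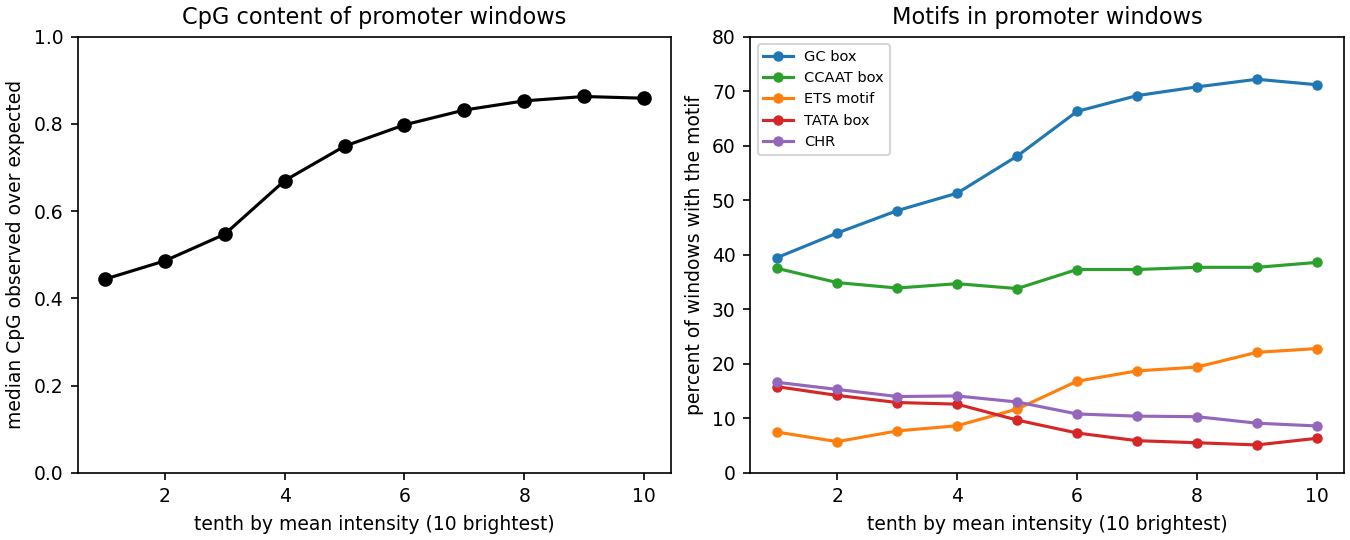
Sequence features of windows from 250 bases before to 50 bases after the start of 14599 protein-coding genes, for 10 groups of genes ordered by mean intensity of the 2 empty vector arrays. The left panel gives the median CpG observed over expected, from 0.444 to 0.859; the right panel gives the percent of windows with each motif, where the GC box runs from 39.5% to 71.2% and the TATA box from 15.8% to 6.33%.

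The baseline was largely shared with the other arrays of the study. Of the 100 brightest symbols, 93 and 90 were also among the 100 brightest of the ACOT12 arrays and 86 among those of the mutant array. Of the 5086 symbols above the reference, 97.0%, 97.7% and 98.4% exceeded it on those arrays. Of the 4578 symbols at the floor, 97.8% and 98.3% were at the floor of the ACOT12 arrays and 84.8% at that of the mutant array.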

How the data were processed

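Trizol-extracted RNA was amplified to amino allyl aRNA and coupled to Cy5 (1 colour), per the labels' protocols. The deposited values are linear probe intensities, the unit being read from the values themselves; how they were scanned, background-corrected and scaled is not given in the sources used here. Probes below 0 numbered 310 and 911 on the empty vector arrays. The number of arrays limits the precision, and no detection flags were used.

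The 2 empty vector arrays were used as deposited. Probes with 1 symbol in the platform annotation (25893, all matched by gene identifier) were kept, 2371 without a symbol were left out, and the brightest probe stood for each of 19090 symbols. Log2 values carry a pseudocount of 1, with values below 0 set to 0. No column of another series was present. No test was run, since 1 group has no contrast; classes, lists and ranks are descriptions. Of 924 listed genes, 854 were measured. Promoter windows of 300 bases (250 before to 50 after the start) came from the RefSeq table (GRCh38.p14), and composition and motifs were taken over all 300, while only the 250 before the start are printed; genes with several windows took the first listed, windows on chromosome 8 were not used, and lists with windows for under 80% of members were not described by motif. The gene groups and lists were chosen with earlier results of these data known, and the printed windows were chosen from their motif matches.

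Named genes are the 30 brightest symbols, the 4 brightest and up to 2 floor members of each list, all hepatocyte and transition transcription factors, fetal liver markers and keratins, the largest replicate differences and fixed markers; further members are named to complete a pathway. Alternatives were other scalings, another handling of several probes, another reference, other percentiles and each array alone. Python 3.11.15, pandas 2.3.3, numpy 2.4.6, scipy 1.17.1 and matplotlib 3.10.9 were used, and the procedure was tested on simulated data.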

Additional observations from a re-analysis of the deposited data

Results flagged for a closer look

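Outside the ranked symbols, 361 of the 2371 probes without a gene symbol (15.2%) exceeded the 95th percentile of the olfactory receptors on both empty vector arrays, which is a signal in data that the comparisons did not use. What these probes measure was not analysed here.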

How the results depend on the processing

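The reference percentile moved the counts most. With the 99th percentile of the olfactory receptors, 1008 symbols were above the reference, with 21 liver, 6 epithelial, 11 mesenchymal and 21 proliferative members, and with the 25th percentile as the floor 1969 symbols lay at it. With the 75th percentile as the floor 8097 symbols did. Among symbols above the reference alone, the brightest 10% minus the dimmest 10% was 0.0004 for CpG observed over expected, −0.873 percentage points for the GC box and 2.34 for the TATA box; over all symbols these were 0.415, 31.7 and −9.52, and the cause was not tested. All other 70 values of the main results under the alternatives stayed within a factor of 1.5 of the main value. Among these alternatives were equal array medians, quantile normalization, the mean or dimmest probe of a symbol and another silent reference. A further 2 were chosen after seeing the data (genes with 1 window, both references together). Of the counts of members above the reference in the lists and in the other blocks, 270 stayed and 45 moved under the alternatives. With the mean over all probes of a symbol, 77 of the 100 brightest symbols remained. With 1 array alone, 5106 to 5924 symbols were above the reference. No paired analysis was possible because the results come from no test.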

Other observations

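Long non-coding RNAs were mostly dim. Of 728 symbols annotated as such, 33 (4.53%) were above the reference and 365 (50.1%) at the floor, beside 27.9% and 22.4% of 17940 protein-coding symbols. After H19 the brightest were the snoRNA host transcripts SNHG29 (131047 and 127059), SNHG32 (23257 and 23620) and SNHG1 (21231 and 18534).

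Cancer-testis genes, which are normally read in germ cells, were above the reference in 4 of 23 (17.4%), beside 26.6% of all symbols. SSX4 read 27675 and 24799.8, SSX1 19125 and 18200, MAGEA6 14209 and 13964, and PAGE1 9844 and 8931. A second SSX1 probe read 716 and 687. SSX and MAGEA genes have near-identical copies, so these readings cannot be credited to 1 gene. DDX53 and PAGE4 were at the floor.

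Some of the 342 olfactory receptors used as the silent reference must exceed their own 95th percentile. The 16 that did so on both arrays are therefore a count largely set by that cut-off. Of the 342, 5 lay in the brightest 10% on both arrays. OR8H1 read 252749 and 233042, rank 65 of all symbols, OR4D6 read 117086 and 118570 and OR2T1 read 79261 and 73714. Each of these had 1 probe, and what they hybridised with was not tested.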
